A study of Homo sapiens with 12 samples.

Results

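The proteasome is represented here by 35 subunit and activator genes, taken by their symbols from a table of 62754 gene rows. All 35 were found, each under 1 Ensembl identifier, and all 35 passed the filter on low counts that left 17115 genes for testing. They are the 7 genes of the core alpha ring (PSMA1 to PSMA7), the 7 constitutive genes of the core beta ring (PSMB1 to PSMB7), the 6 base ATPases (PSMC1 to PSMC6), 11 non-ATPase subunits of the regulatory particle (PSMD genes) and 4 activators (PSME1 to PSME4). The inducible core subunits PSMB8, PSMB9 and PSMB10 are not among the 35 and were read beside them.

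The proteasome is the protease that degrades ubiquitin-tagged proteins in the cytosol and nucleus. Its barrel-shaped core is closed by rings of alpha subunits, which gate the entry, around rings of beta subunits, which hold the cutting sites; a regulatory particle of ATPases and non-ATPases binds the ubiquitin chain, removes it, unfolds the protein and feeds it into the core. In cells exposed to interferon, inducible beta subunits replace the 3 catalytic ones and the activators PSME1 and PSME2 join the core, a form known for making peptides for antigen presentation. When proteasome activity falls short, the transcription factor NFE2L1 is known to raise the subunit genes together.

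The measurements were polyA RNA-seq of PC9, a human lung adenocarcinoma cell line that depends on the growth factor receptor EGFR, which erlotinib inhibits. There were 4 groups of 3 libraries. The reference was PC9 with wild-type TDP1 and no drug (WT). Cultures of the same genotype were kept in erlotinib at 1 µM and taken at day 7 (called DTC, for drug-tolerant cells) or at day 28 (called DTEC, for drug-tolerant expanded cells). The last group was PC9 with TDP1 knocked out, also without drug (KO, from the line KO2). TDP1 is an enzyme that removes topoisomerase I trapped on DNA. All cells came from 1 subclonal PC9 line, all libraries carry the same batch label, and the replicates of a condition were split from a common flask and then grown apart, so the p-values measure the spread between such cultures. The knockout is 1 line, so the deletion and any other property of that line cannot be told apart. No day is given for the untreated cultures, so drug, time in culture and survival of some of the cells cannot be told apart in DTC and DTEC.

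Library totals ran from 25572691 to 38373679 counts. Values are CPM, counts scaled to each library's total and TMM factor; a log2 fold change is given ± its standard error, and a gene is called at a Benjamini-Hochberg adjusted p under 0.05 over all 17115 genes in edgeR's quasi-likelihood test. TDP1 stood at 28.1, 25.1 and 25.8 CPM in WT and 10.1, 11.3 and 10.98 in KO, with a log2 fold change of -1.29 ± 0.11 and adjusted p = 1.30e-05; it was also lower in DTC, at 15.7, 12.7 and 13.5 CPM (-0.92 ± 0.11), and in DTEC it was at 28.4, 25.4 and 26.1 CPM (0.02 ± 0.11, not called). The 5 epithelial markers were over 1 CPM in every group, with a summed level of 4465 to 5022 CPM in DTC against 8862 to 9330 in WT; DTEC had 7480 to 9812 and KO 9542 to 10260.1. Of 6 fibroblast markers COL1A1 alone was over 1 CPM in each group, and of 4 leukocyte markers CD68 alone; of 3 endothelial markers 2 were over 1 CPM in WT, DTEC and KO and 3 in DTC. In WT COL1A2, COL3A1, DCN, LUM and CD3E were at 0. In the order WT, DTC, DTEC and KO, the fibroblast markers summed to 7.99 to 8.91, 55.0 to 57.6, 11.1 to 14.1 and 13.4 to 15.1 CPM. The leukocyte markers summed to 26.6 to 33.5, 37.3 to 54.0, 34.2 to 41.0 and 25.9 to 28.97 CPM in that order, and the endothelial ones to 58.5 to 61.4, 41.9 to 49.5, 121.6 to 141.6 and 75.7 to 77.2; their part in the proteasome results was not tested. Fewer cells of a kind and less RNA per cell cannot be told apart in such bulk libraries.

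The sequences before the start sites are given first, for members that moved with and against the rest. RefSeq promoter entries on GRCh38.p14 were matched for 30 of the 35 genes, 36 entries in all; PSMA7, PSMB1, PSMB6, PSMB7 and PSMD4 had none. In the 250 bases before each start site, both strands were searched for the antioxidant response element core TGACNNNGC, which NFE2L1 and NFE2L2 bind, and for the core of the interferon-stimulated response element, GAAA, any 2 bases and GAAA; the searches for the CCAAT box (CCAAT, in 15 of 36 entries, 41.7%, and 32.0% of all) and the E-box (CACGTG, in 2 of 36, 5.56%, and 6.34% of all) are given for completeness. The antioxidant core was in 8 of 36 member entries (22.2%) and in 10.9% of 35116 entries of all genes; the interferon core was in 3 of 36 (8.33%) and in 3.02% of all. A match is a description of letters and not of binding. The interferon-type sites are shown in capitals with 10 bases on each side, 5′ to 3′ on the gene's strand, for the 3 members that hold one and for the inducible subunit PSMB10.
PSME2 (chr14:24146619-24146648, minus strand): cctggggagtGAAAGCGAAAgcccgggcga
PSMB10 (chr16:67936852-67936881, minus strand): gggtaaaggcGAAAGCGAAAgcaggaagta
PSMB4 (chr1:151399495-151399524, plus strand): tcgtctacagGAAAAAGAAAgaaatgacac
PSMA4 (chr15:78540155-78540184, plus strand): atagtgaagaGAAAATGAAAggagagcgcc

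PSME2 and PSMB10 carry the same 10 capital letters, 28 to 19 bases and 21 to 12 bases before their RefSeq start sites, and both genes were called higher in DTC. PSME1, PSMB8 and PSMB9 were called higher too, and their entries (2 for PSMB8) hold no interferon core in this window. PSMB4 and PSMA4 carry other fillings of the same core, at 68 to 59 and 240 to 231 bases, and neither was called in DTC, but PSMA4 was called higher with total-count scaling (0.54, adjusted p = 0.00815) and upper-quartile scaling (0.47, adjusted p = 0.0216). The antioxidant-type sites are shown in the same way for the activators PSME1 and PSME2, which were higher in DTC, and for PSMD3, PSMD12 and PSMC5, which were lower. The core was also in PSMA4, PSMB3 and PSME4, and in the inducible subunit PSMB9, which is not a member. PSMC5 and PSMA4 also have entries without the antioxidant core, and PSMA4 has entries without the interferon core.
PSME1 (chr14:24136098-24136126, plus strand): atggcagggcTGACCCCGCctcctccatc
PSME2 (chr14:24146767-24146795, minus strand): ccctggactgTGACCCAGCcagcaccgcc
PSMD3 (chr17:39980760-39980788, plus strand): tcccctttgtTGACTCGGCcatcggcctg
PSMD12 (chr17:67366724-67366752, minus strand): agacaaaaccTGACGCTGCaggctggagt
PSMC5 (chr17:63827654-63827682, plus strand): gaccggatctGCTGTGTCAgcgccgccct

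In PSMC5 the capitals read as the reverse complement of the core. The 35 genes lie on 13 chromosomes, with 7 on chromosome 17 and 7 on chromosome 14. PSME1 (chr14:24136158-24138967) and PSME2 (chr14:24143362-24147570), which encode the 2 subunits of 1 activator ring, lie 4394 bases apart on opposite strands in GENCODE 29 on GRCh38.

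Proteasome gene RNA was lower after erlotinib at both times. The summed level of the 35 genes was 9815, 8969 and 9019.9 CPM in the 3 WT libraries, 5721, 6766 and 6304 in DTC and 4913, 4906 and 5256 in DTEC. No treated library reached the lowest WT library, and no DTEC library reached the lowest DTC library. The KO libraries were at 8011, 8203 and 8246 CPM, also under every WT library. The group means (± SD, n = 3) were 9268 ± 474 CPM in WT, 6264 ± 524 in DTC, which is 67.6% of WT, and 5025 ± 200 in DTEC, which is 54.2%. As a share of all counts, which uses no scaling factor, the genes took 0.814 to 0.875% in WT against 0.658 to 0.777% in DTC. The share was 0.495 to 0.530% in DTEC, and KO had 0.762 to 0.777%.

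Levels differed widely among members. Set per transcript length (CPM per kilobase of the median annotated length, with isoform use unknown), PSMD2 was highest in WT at 669 and PSMA7 next at 333, while PSME4 was lowest at 39.9; PSMD2 was highest and PSME4 lowest in all 4 groups. In WT the median per kilobase was 245.6 for the beta ring, 170.3 for the alpha ring, 108 for the ATPases, 100.4 for the non-ATPases and 52.4 for the activators. The median coefficient of variation of a member over 3 libraries was 6.50% in WT, 5.60% in DTEC, 2.51% in KO and 16.4% in DTC, where PSMA5 reached 43.7%. The DTC libraries differed from each other most in the alpha ring, where DTC replicate 1 was the lowest of the 3 for all 7 genes and DTC replicate 2 the highest for all 7.

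**Figure D1:**
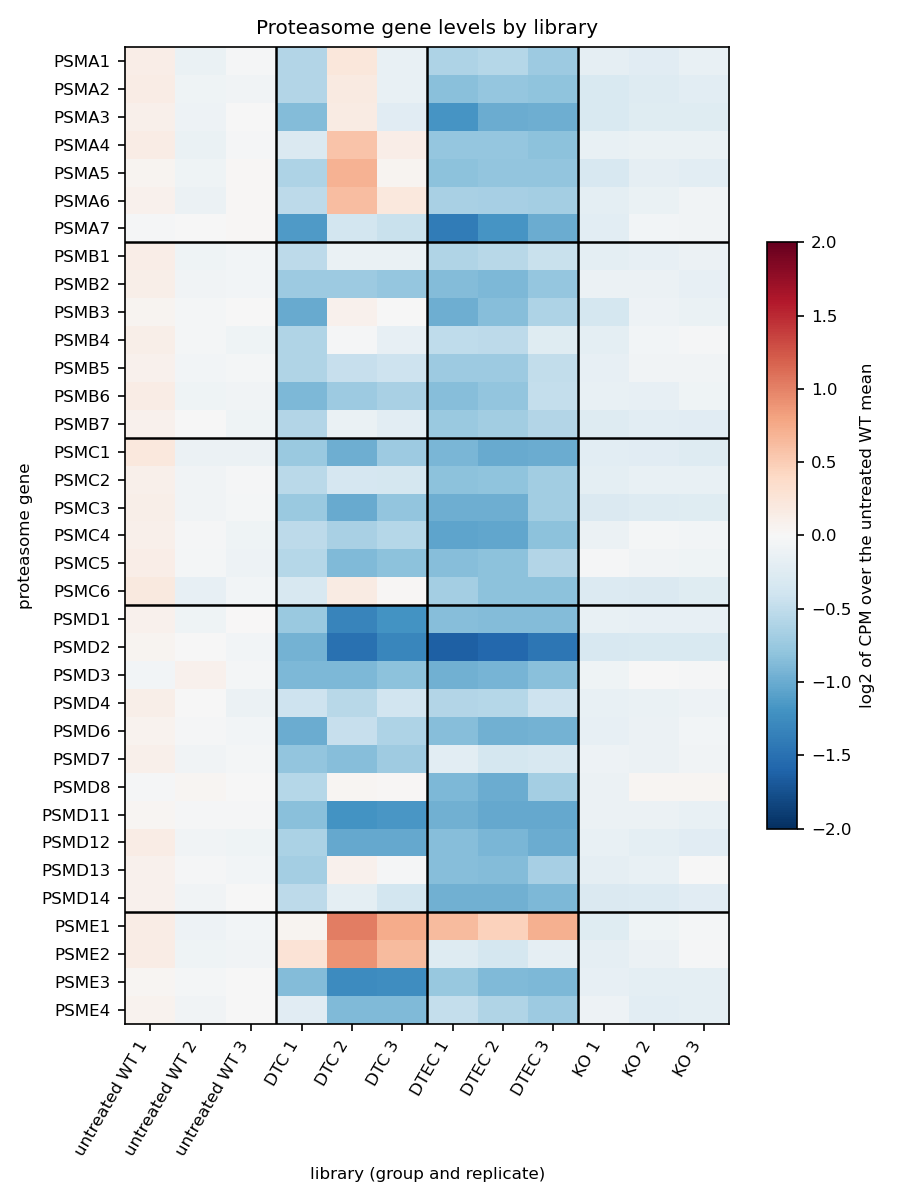
Each cell is the log2 of a gene's CPM in 1 library (columns) over the mean of the 3 untreated WT libraries, for the 35 proteasome genes (rows, split by structural group); red is higher and blue lower. DTEC columns are blue except at PSME1, DTC replicate 2 is red for the alpha ring except PSMA7 while DTC replicate 1 is blue there, and KO columns are pale.

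At 7 days, 23 of the 35 genes were called, 21 lower and 2 higher, against 67.3% of all tested genes called (33.3% lower, 34.0% higher). For 22 genes every DTC library was below every WT library and for 1 above, against 33.8% and 35.1% of all genes. The median log2 fold change of the 35 was -0.45, against 0.06 over all genes. At 28 days, 34 genes were called, 33 lower and PSME1 higher, against 52.3% of all genes (26.3% lower, 26.0% higher), with a median of -0.80 against 0.02. For 34 genes every DTEC library was below every WT library and for PSME1 above, against 31.3% and 31.1% of all genes. The 2 comparisons share the WT libraries. Scaling to total counts alone raised the all-gene median to 0.41 at 7 days and 0.19 at 28 days, with 68.4% of called genes higher at 7 days against 50.5% under TMM, and 63.7% against 49.7% at 28 days. Under it the members' median was -0.09 and -0.63, still below the all-gene value, with 14 of 19 called genes lower at 7 days and 31 of 32 at 28 days. In both comparisons DESeq2 gave the same counts of calls as edgeR.

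**Figure D2:**
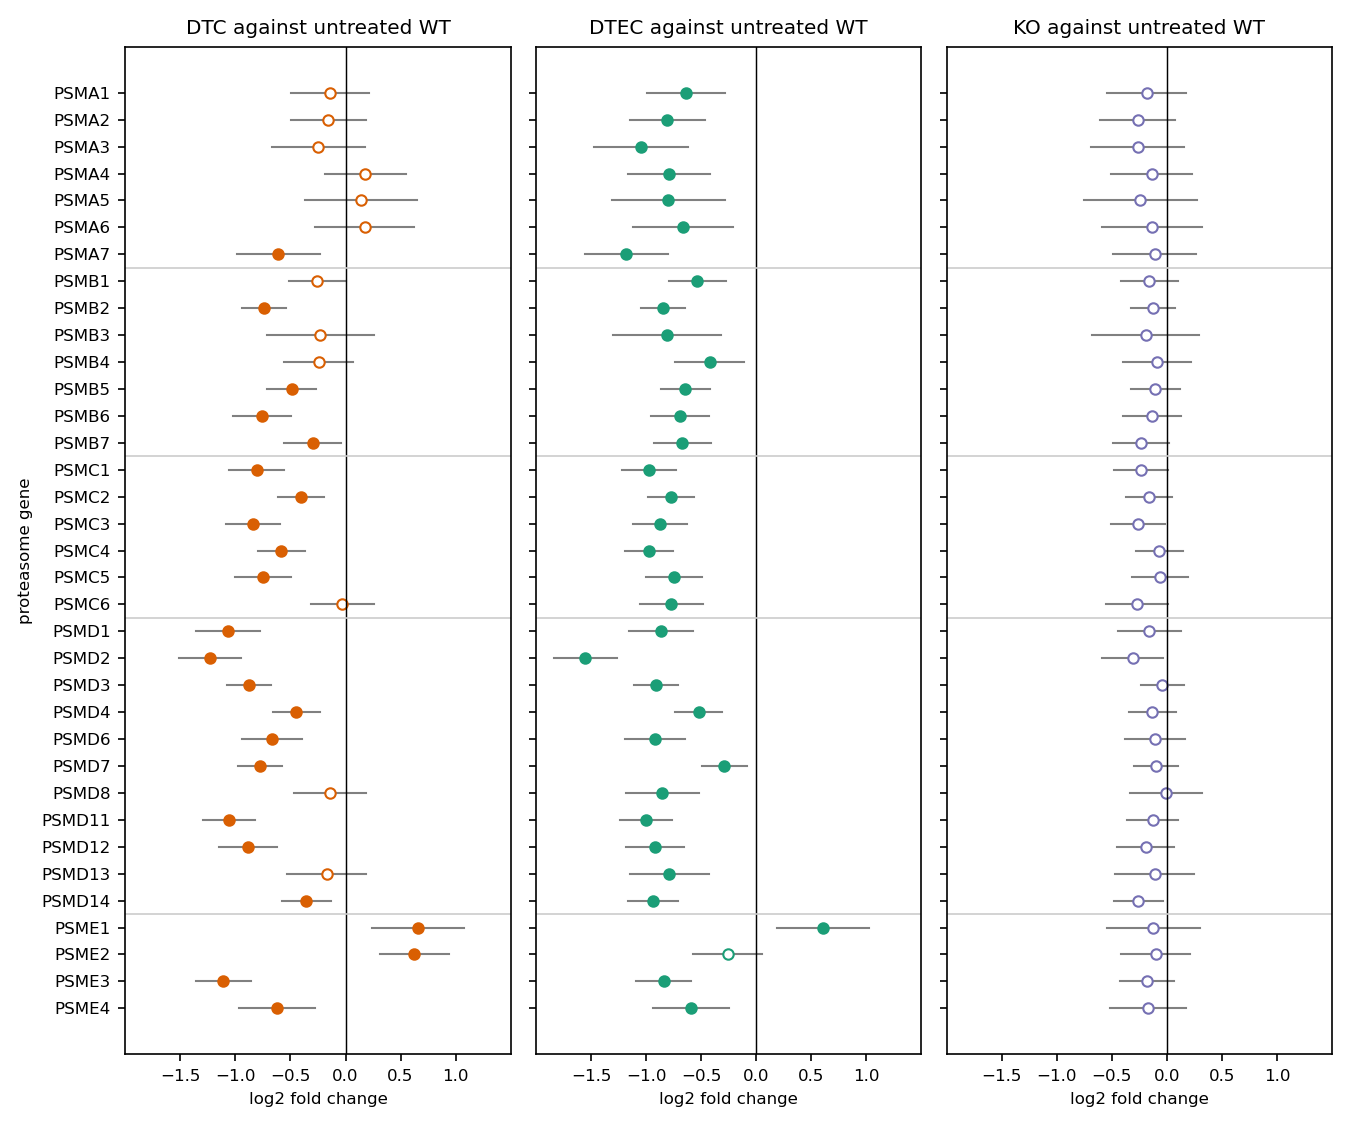
Points are log2 fold changes against untreated WT for the 35 genes (rows) with 95% intervals, in 3 panels for DTC, DTEC and KO; filled points were called at an adjusted p under 0.05. In DTC 2 activators lie to the right and 21 filled points to the left, in DTEC 33 filled points lie to the left, and in KO all 35 points are open and left of 0.

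The alpha ring differed between the 2 times. In DTC 1 of 7 genes was called, PSMA7, and the ring's median log2 fold change was -0.14. In DTEC all 7 were lower, with a median of -0.80. For this ring and the structural groups that follow, the share of all tested genes called lower was 33.3% in DTC and 26.3% in DTEC. The median in DTC turned to 0.22 under scaling to total counts and 0.15 under upper-quartile scaling. With total counts no alpha gene was called lower and 2 were called higher, PSMA4 (0.54, adjusted p = 0.00815) and PSMA6 (0.53, adjusted p = 0.0271). The ring's summed level was 1756, 1559.9 and 1648 CPM in WT, 1042, 2072 and 1556 in DTC and 880.0, 924 and 927 in DTEC. DTC thus spanned the WT range on both sides, while every DTEC library was below it.

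PSMA7 read 328, 329 and 338 CPM in WT, 151, 257 and 244 in DTC and 126, 146 and 167 in DTEC. Every treated library was below every WT library, with log2 fold changes of -0.61 ± 0.16 in DTC (adjusted p = 0.00414) and -1.18 ± 0.16 in DTEC (adjusted p = 3.88e-05). The call in DTC was lost with total-count scaling (-0.25, adjusted p = 0.179) and with upper-quartile scaling (-0.32, adjusted p = 0.112). PSMA3, whose tail contacts the ATPase ring, read 172, 149 and 159 CPM in WT, 87.7, 179.9 and 136 in DTC and 70.8, 80.5 and 80.9 in DTEC; DTC overlapped WT and DTEC did not, with a log2 fold change of -1.05 ± 0.19 in DTEC and adjusted p = 3.33e-04.

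PSMA5 spread most in DTC. It read 417, 378 and 407 CPM in WT, 262, 645 and 418 in DTC and 227, 231 and 233 in DTEC. DTC replicate 1 was below all WT libraries and DTC replicates 2 and 3 above them, and the mean difference of 0.14 ± 0.22 was not called (adjusted p = 0.587). In DTEC it fell by 0.80 ± 0.22 with adjusted p = 0.00853. PSMA4 and PSMA6 had the same order of DTC libraries. PSMA1 and PSMA2 also overlapped WT in DTC (-0.14 ± 0.15 and -0.16 ± 0.15) and fell by 0.64 ± 0.15 and 0.81 ± 0.15 in DTEC. Without DTC replicate 1, 3 alpha genes were called higher in DTC (PSMA4 0.40, PSMA5 0.44 and PSMA6 0.46 on the log2 scale). PSMA7 was called lower, which was the 1 alpha call with all libraries. Calls over all genes numbered 12323 without that library, against 11520.

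**Figure D3:**
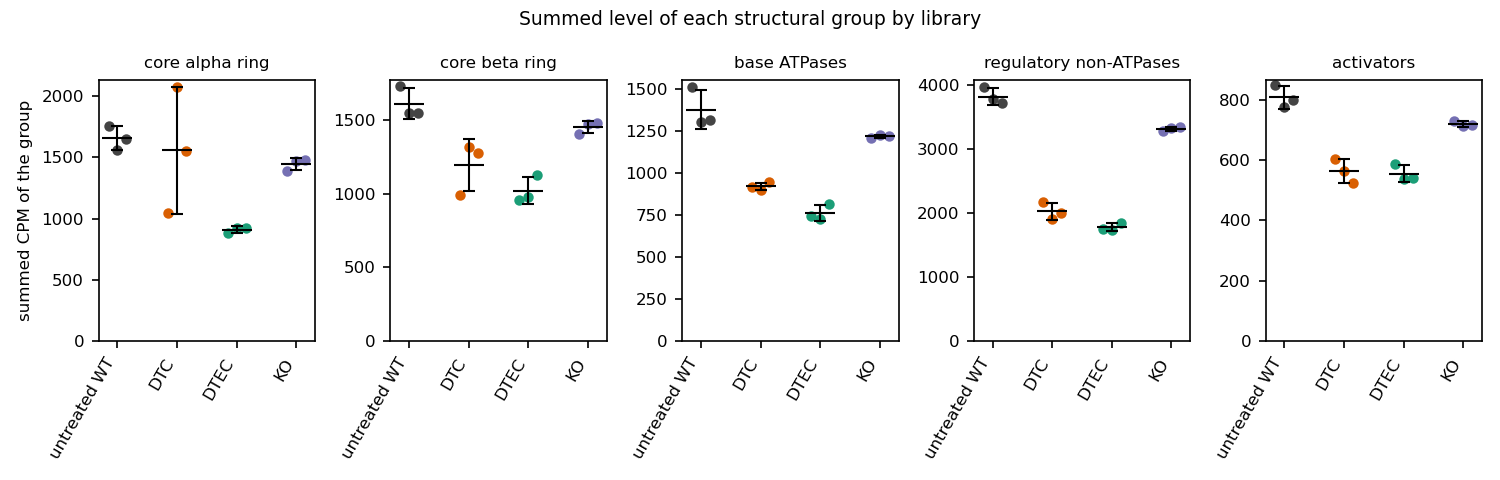
Points are the summed CPM of each structural group in each library, with the group mean and SD as bars, for the 4 sample groups in 5 panels. In DTC the alpha ring spreads from 1042 to 2072 CPM across the WT values. The beta ring, ATPases, non-ATPases and activators lie below WT in all 6 treated libraries.

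The beta ring, which holds the catalytic subunits, was lower for 4 of 7 genes in DTC (median -0.30) and 7 of 7 in DTEC (median -0.67). The DTC median was 0.06 with total-count scaling and -0.01 with upper-quartile scaling. PSMB5, the chymotrypsin-like site and the main target of bortezomib, read 152, 138 and 139.8 CPM in WT, 93.9, 104 and 108 in DTC and 86.6, 87.0 and 101 in DTEC. All treated libraries were below all WT ones, with log2 fold changes of -0.49 ± 0.10 (adjusted p = 4.43e-04) and -0.64 ± 0.10 (adjusted p = 7.52e-05). The first of these was -0.13 with adjusted p = 0.226 under total-count scaling and -0.20 with adjusted p = 0.0853 under upper-quartile scaling.

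PSMB6, the caspase-like site, showed the largest beta-ring fall in DTC. It read 262, 222 and 227 CPM in WT, 128, 143 and 151 in DTC and 131, 138 and 171 in DTEC, and the log2 fold changes were -0.76 ± 0.11 and -0.70 ± 0.11. PSMB7, the trypsin-like site, read 239, 223 and 212 CPM in WT, 149.7, 204 and 194 in DTC and 135, 139 and 150.2 in DTEC. Its groups did not overlap with WT, but the difference in DTC (-0.30 ± 0.11, adjusted p = 0.0281) kept its call in 8 of 21 alternatives and was 0.06 under total-count scaling. The fall in DTEC was -0.67 ± 0.11 with adjusted p = 1.88e-04. PSMB2, which has no cutting site, was also lower, at -0.74 ± 0.09 in DTC and -0.85 ± 0.09 in DTEC, with all treated libraries below WT. PSMB1, PSMB3 and PSMB4 were not called in DTC (-0.26 ± 0.11, -0.23 ± 0.21 and -0.24 ± 0.14) and fell by 0.53 ± 0.11, 0.81 ± 0.21 and 0.42 ± 0.14 in DTEC. The difference between the times was called for PSMB1 and PSMB3 (-0.28 ± 0.11 and -0.58 ± 0.21) and not for PSMB4 (-0.17 ± 0.14). With total-count scaling PSMB4 lost its DTEC call (-0.25, adjusted p = 0.130), as it did with upper-quartile scaling (-0.31, adjusted p = 0.0837), and its difference between the times was called (-0.36, adjusted p = 0.0332).

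The base ATPases, which unfold the substrate, were lower for 5 of 6 genes in DTC (median -0.67; with total-count scaling 4 lower and PSMC6 higher) and 6 of 6 in DTEC (median -0.82). PSMC1 read 243, 194 and 194 CPM in WT, 126, 107 and 127 in DTC and 112, 104 and 105 in DTEC, with log2 fold changes of -0.81 ± 0.11 and -0.97 ± 0.11 (adjusted p = 1.14e-05 and 4.60e-06). No treated library overlapped WT. PSMC1 has 13 annotated pseudogenes and decimal counts in every library, so its level is uncertain. PSMC2, PSMC3, PSMC4 and PSMC5 were also below WT in every treated library, at -0.40 ± 0.09, -0.84 ± 0.11, -0.58 ± 0.09 and -0.75 ± 0.11 in DTC and -0.77 ± 0.09, -0.87 ± 0.11, -0.97 ± 0.09 and -0.75 ± 0.11 in DTEC. The DTC call of PSMC2 was lost with total-count scaling (-0.05, adjusted p = 0.645) and upper-quartile scaling (-0.11, adjusted p = 0.290). PSMC6 was the exception in DTC, at 123, 171 and 156 CPM against 175, 137 and 148 in WT, with a difference of -0.03 ± 0.12 (95% interval -0.31 to 0.25), and it was lower in DTEC at 95.8, 87.2 and 87.0 CPM (-0.77 ± 0.12).

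Of the structural groups, the non-ATPase subunits had the lowest median log2 fold change and the lowest summed level relative to WT at both times. In DTC 9 of 11 were lower (median -0.78; 7 of 11 with total-count scaling) and in DTEC 11 of 11 (median -0.91), and their summed level fell to 53.1% and 46.6% of WT. PSMD2, the base subunit that docks ubiquitin shuttle receptors, is the most abundant member. Its mean made up 1762 of the 3819 CPM summed over the 11 genes in WT, so these sums lean on PSMD2. It read 1825, 1756 and 1706 CPM in WT, 911, 629 and 713 in DTC, 565, 593 and 645 in DTEC and 1414, 1422 and 1427 in KO. Every DTC and DTEC library was under the WT range, and the KO libraries lay between. The log2 fold change was -1.23 ± 0.12 in DTC (adjusted p = 6.37e-07) and -1.55 ± 0.12 in DTEC (adjusted p = 2.28e-07), 2.35-fold and 2.93-fold lower. Of the 35 genes it had the largest fall at both times.

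PSMD1, the other large scaffold of the base, read 364, 324 and 345 CPM in WT, 206, 138 and 149.7 in DTC and 191, 189.5 and 188 in DTEC. PSMD11, the lid subunit that clamps the regulatory particle to the core, read 323, 309 and 309.8 CPM in WT, 177, 137 and 139.5 in DTC and 162, 154 and 154 in DTEC. PSMD12, a lid scaffold, read 194, 167 and 166 CPM in WT, 113, 86.4 and 86.8 in DTC and 97.8, 93.1 and 88.2 in DTEC. For these 3 genes no treated library reached the WT range, and DTC replicate 1 was the highest of the DTC libraries, the reverse of its place in the alpha ring. Their log2 fold changes in DTC were -1.07 ± 0.13, -1.06 ± 0.10 and -0.88 ± 0.11 in the same order, with adjusted p = 3.84e-06, 4.82e-07 and 8.53e-06. In DTEC they were -0.86 ± 0.13, -1.001 ± 0.10 and -0.92 ± 0.11.

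PSMD14, the deubiquitinase that cuts the chain off the substrate, read 166, 149 and 155 CPM in WT, 109, 138 and 121 in DTC, 80.9, 80.4 and 84.5 in DTEC and 128, 130.1 and 134 in KO. All 9 libraries outside WT were below the WT range and DTEC was lowest. Its log2 fold change was -0.36 ± 0.10 in DTC (adjusted p = 0.00478) and -0.94 ± 0.10 in DTEC (adjusted p = 2.82e-06); under total-count scaling the DTC value was -0.00055 with adjusted p = 0.997. PSMD7, its catalytically inactive partner, had the opposite course in time, at 178, 159 and 162 CPM in WT, 96.6, 92.5 and 102 in DTC and 144, 131 and 134 in DTEC. It fell by 0.78 ± 0.09 in DTC and by 0.29 ± 0.09 in DTEC, and all DTEC libraries were above all DTC libraries. Its DTEC call was lost with total-count scaling (-0.12, adjusted p = 0.254) and upper-quartile scaling (-0.17, adjusted p = 0.0968). PSMD4, a ubiquitin receptor, read 201, 184 and 172 CPM in WT, 139, 127 and 142 in DTC and 124, 125 and 139 in DTEC, below WT in all treated libraries (-0.45 ± 0.09 and -0.52 ± 0.09). Its DTC call was lost with total-count scaling (-0.09, adjusted p = 0.382) and upper-quartile scaling (-0.16, adjusted p = 0.130). PSMD3 and PSMD6, lid subunits, were also below WT throughout, at -0.88 ± 0.09 and -0.67 ± 0.12 in DTC and -0.91 ± 0.09 and -0.92 ± 0.12 in DTEC. PSMD8 and PSMD13 were the non-ATPases not called in DTC, at -0.14 ± 0.14 and -0.17 ± 0.15, and they fell by 0.85 ± 0.14 and 0.79 ± 0.16 in DTEC.

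The activators divided. PSME1 and PSME2, the interferon-inducible pair, were higher in DTC, and PSME3, the nuclear activator, and PSME4, the large activator that works without ubiquitin, were lower. PSME1 read 63.2, 53.5 and 55.0 CPM in WT, 59.3, 116 and 95.6 in DTC and 89.1, 79.0 and 93.6 in DTEC. DTC replicate 1 lay within the WT range and the other 2 DTC libraries above it, and all DTEC libraries were above WT. The log2 fold changes were 0.66 ± 0.18 (adjusted p = 0.00545) and 0.61 ± 0.18 (adjusted p = 0.0123), and both held in all 21 alternatives, over 0.40 to 1.01 and 0.55 to 0.78.

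PSME2 read 74.4, 63.1 and 64.4 CPM in WT, 81.1, 126 and 104 in DTC and 56.6, 52.6 and 59.3 in DTEC. All DTC libraries were above and all DTEC libraries below the WT range. It was higher in DTC by 0.62 ± 0.14 (adjusted p = 9.23e-04), and the DTEC difference of -0.26 ± 0.14 was not called (adjusted p = 0.122). PSME3 read 413, 388 and 399 CPM in WT, 219, 168 and 169.6 in DTC and 237, 217 and 216 in DTEC, all treated libraries being below WT. It fell by 1.11 ± 0.11 in DTC (adjusted p = 5.05e-07), next to PSMD2 the largest fall among the 35, and by 0.84 ± 0.11 in DTEC. PSME4 read 298, 270.5 and 281 CPM in WT, 243, 154 and 154 in DTC and 204, 187 and 171 in DTEC, with -0.63 ± 0.15 (adjusted p = 0.00196; 0.119 under total-count scaling) and -0.60 ± 0.15 (adjusted p = 0.00411).

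In DTC the 3 inducible subunits were higher while the 3 constitutive ones that they replace were lower. Of 21 alternatives, the lower call was kept in 21 for PSMB6, 19 for PSMB5 and 8 for PSMB7. The 3 inducible subunits were not called in KO. PSMB9, the counterpart of PSMB6, read 1.93, 1.32 and 1.04 CPM in WT, 14.6, 25.9 and 23.4 in DTC and 5.60, 3.93 and 2.20 in DTEC. All DTC libraries were above all DTEC libraries, which were above WT, with log2 fold changes of 3.89 ± 0.34 (adjusted p = 3.15e-07) and 1.44 ± 0.34 (adjusted p = 0.00318). PSMB8, the counterpart of PSMB5, read 37.4, 33.2 and 34.0 CPM in WT, 52.0, 74.4 and 82.8 in DTC and 39.6, 39.6 and 41.2 in DTEC, higher in DTC by 1.001 ± 0.14 (adjusted p = 1.48e-05) and not called in DTEC. PSMB10, the counterpart of PSMB7, read 10.99, 13.5 and 11.3 CPM in WT, 14.6, 24.9 and 28.0 in DTC and 14.4, 14.8 and 19.0 in DTEC, and was higher in DTC by 0.92 ± 0.20 (adjusted p = 9.26e-04) and not called in DTEC. PSMB8 and PSMB9 overlap by 568 bases on opposite strands, and whether the counting used strand is not given in the sources used here. PSMA8 and PSMB11, of testis and thymus, had no count outside 1 count of PSMB11 in a KO library.

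As a share of each pair per transcript length, PSMB8 was 18.2, 17.9 and 18.0% of PSMB8 plus PSMB5 in WT, 33.3, 39.2 and 40.9% in DTC, 29.2, 29.1 and 26.8% in DTEC and 22.4, 21.7 and 22.1% in KO. The 4 groups did not overlap, with DTC highest and WT lowest. PSMB9 was 0.804, 0.648 and 0.502% of PSMB9 plus PSMB6 in WT, 11.2, 16.6 and 14.6% in DTC, 4.5, 3.05 and 1.399% in DTEC and 1.34, 0.955 and 1.08% in KO. PSMB10 was 3.57, 4.66 and 4.11% of PSMB10 plus PSMB7 in WT, 7.26, 8.92 and 10.4% in DTC, 7.92, 7.89 and 9.26% in DTEC and 5.39, 5.38 and 5.86% in KO, with DTC and DTEC overlapping. For all 3 pairs each WT library was below each library of the other groups. Of all tested single genes, 35.1% had every DTC library above every WT library, 31.1% every DTEC library and 15.8% every KO library. Such a share was not computed for other gene pairs. In 11 of 12 two-sided exact permutation tests p was 0.1, the smallest that 3 against 3 libraries allow (0.109 after Benjamini-Hochberg adjustment over the 12), and it was 0.7 for PSMB10 between DTEC and DTC.

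**Figure D4:**
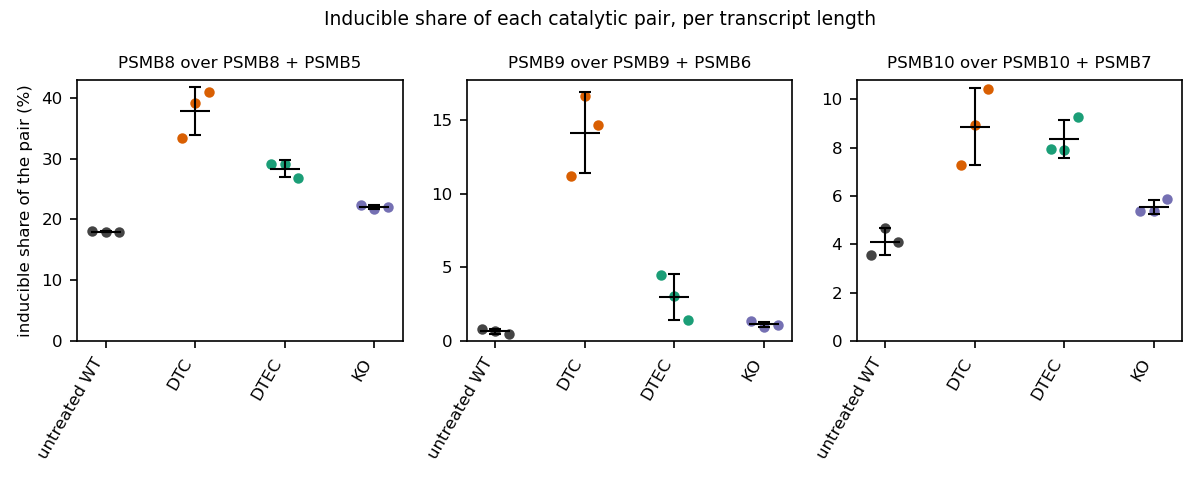
Points are the percent of each catalytic pair made up by the inducible subunit in each library, from CPM per transcript length, with the group mean and SD as bars; each panel has its own axis from 0. DTC is highest for PSMB8 (33.3 to 40.9%) and PSMB9 (11.2 to 16.6%), and WT is lowest in all 3 panels.

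Of 5 interferon regulators 4 were higher in DTC (median 1.33), against 34.0% of all tested genes. IRF9, a subunit of the factor that binds interferon-stimulated response elements, read 2.11, 1.605 and 1.89 CPM in WT, 12.6, 21.8 and 16.8 in DTC and 7.00, 5.09 and 6.80 in DTEC, and STAT2, its partner, rose by 2.81 ± 0.13 in DTC and 1.65 ± 0.13 in DTEC. UBD, a ubiquitin-like protein that marks proteins for the proteasome and is known to be induced by interferon, had no count in any WT or KO library. It stood at 108, 217 and 173 CPM in DTC and 0.944, 0.306 and 0.440 in DTEC, at least 1798-fold and 6.09-fold higher than a floor of 3 counts per WT library.

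Between 28 and 7 days, the difference was tested directly in the same model. Of the 35 genes 20 were called, 18 lower and 2 higher at 28 days, against 55.4% of all genes called (26.6% lower, 28.8% higher), and the median was -0.28 against -0.01. All 7 alpha genes were lower (median -0.80), from -0.97 for PSMA4 to -0.50 for PSMA1. This held for all 7 without DTC replicate 1. That library was the lowest DTC library for all 7, so leaving it out does not test the fall. PSMA3, PSMA4, PSMA5 and PSMA6 kept the call in all 21 alternatives, among them the fit without DTC replicate 2, the highest for all 7. Of the other groups 3 of 7 beta, 3 of 6 ATPase and 4 of 11 non-ATPase genes were lower. PSMA4 differed by -0.97 ± 0.16 (adjusted p = 1.63e-04), with 165, 302 and 221 CPM in DTC and 119, 118 and 114 in DTEC, groups that did not overlap. PSMA6 differed by -0.84 ± 0.20, with 88.1, 194 and 146 CPM in DTC and 80.8, 79.8 and 79.1 in DTEC, also without overlap.

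From DTC to DTEC PSME2 fell by 0.88 ± 0.14 (adjusted p = 8.35e-05), whereas for PSME1 the difference was -0.05 ± 0.18 (95% interval -0.47 to 0.37) and was not called. PSMD14 fell by 0.58 ± 0.10 (adjusted p = 1.81e-04). PSMD7 was higher by 0.49 ± 0.09 (adjusted p = 2.87e-04), with all DTEC libraries above all DTC libraries and the call kept in all 21 alternatives. PSME3 was higher by 0.27 ± 0.11 (adjusted p = 0.0450), a call lost in 18 of 21 alternatives. For PSMD2 the difference was -0.32 ± 0.12 (adjusted p = 0.0353), with overlapping libraries. The catalytic PSMB5 and PSMB6 were not called, at -0.15 ± 0.10 (-0.34, adjusted p = 0.00728, with total-count scaling) and 0.06 ± 0.11, and PSMB7 fell by 0.37 ± 0.11. Without DTC replicate 1 the calls numbered 25, with 4 higher. Calls over all genes numbered 10610 then, against 9480 with all libraries.

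The place of a gene in DTC moved with its transcript length. Over 16419 tested genes with a length, the slope of the log2 difference from WT on log10 length was -0.80 and -0.62 in DTC replicates 2 and 3, 0.08 in DTC replicate 1 and between -0.06 and 0.14 in the other libraries. Genes under 1000 nt had medians of 0.01, 0.57 and 0.36 in DTC replicates 1, 2 and 3, and genes of 4000 nt or more 0.05, -0.27 and -0.25. The core ring genes are mostly short (median 993 nt) and the ATPase and non-ATPase genes longer (median 1889 nt), so length and structural group partly go together. Exceptions include PSMA5 (2616 nt) and PSMB2 (3459 nt) in the core and PSMD4 (1342 nt) among the non-ATPases. Which of the 2 the DTC differences follow was not tested. With a length trend removed from each library, an alternative added after seeing the data, 31 members were called in DTC, 29 lower. Over all genes that fit called 11506 of 16419 in DTC, 48.2% of them higher. Lower were 4 of 7 alpha, 7 of 7 beta, 5 of 6 ATPase and 11 of 11 non-ATPase genes. PSME1 (0.40) and PSME2 (0.48) were still higher. Between DTEC and DTC, all 7 alpha genes were still lower with the trend removed (median -0.52). Of the beta genes none was lower and PSMB6 was higher (0.31). The same fit called 9629 of all genes between DTEC and DTC, 53.4% of them higher.

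**Figure D5:**
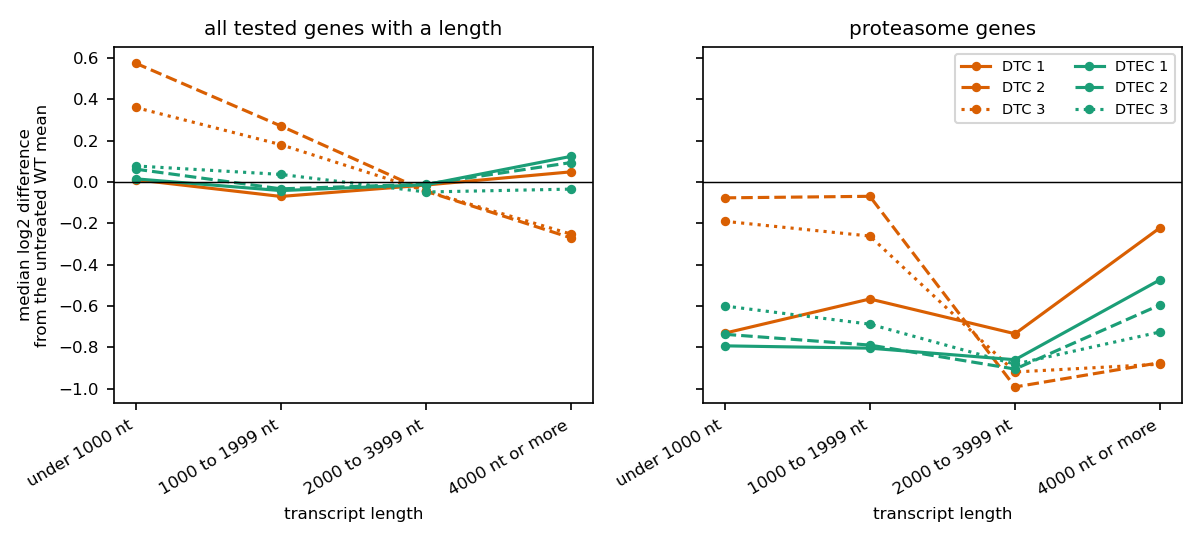
Lines join the median log2 difference from the untreated WT mean in 4 classes of transcript length for each DTC and DTEC library, over all tested genes with a length (left) and over the proteasome genes (right; 8, 16, 10 and 1 genes in the classes). Among all genes DTC replicates 2 and 3 run from 0.57 and 0.36 down to -0.27 and -0.25, while DTC replicate 1 stays near 0; among proteasome genes the DTEC lines lie below 0 in every class.

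In KO, no member was called in edgeR's quasi-likelihood test, against 4.31% of all genes (1.55% lower, 2.76% higher), and the smallest adjusted p of a member was 0.174, for PSMD14. At an unadjusted p under 0.05 there were 5, all lower, as against 16.6% of all genes; DESeq2 called 0, with 5 at that unadjusted p. All 35 log2 fold changes were below 0, from -0.31 (PSMD2) to -0.01 (PSMD8), with a median of -0.14 against -0.01 over all genes. Under total-count scaling 31 of 35 were below 0, the fewest among the alternatives, with a median of -0.07 against 0.05. For 23 of 35 genes every KO library was below every WT library, against 19.9% of all genes. WT replicate 1 was the highest WT library for 32 of the 35, and without it the median was -0.09. Fitted on the 6 KO and WT libraries alone, 9 members were called, all lower, PSMD2 with the largest fall (-0.29); over all genes that fit called 2656, against 738 with all 12 libraries.

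PSMD2 in KO, at the CPM values given above, differed from WT by -0.31 ± 0.12 (95% interval -0.59 to -0.03, adjusted p = 0.195), and PSMD14 by -0.26 ± 0.10 (95% interval -0.48 to -0.04). The catalytic subunits read 127, 136 and 136 CPM for PSMB5, 214, 211 and 224 for PSMB6 and 187, 194 and 192 for PSMB7 in KO. Their differences were -0.11, -0.13 and -0.23, with 95% intervals of -0.33 to 0.12, -0.39 to 0.13 and -0.49 to 0.02. The activators PSME1, PSME2, PSME3 and PSME4 differed by -0.12, -0.10, -0.18 and -0.17. These intervals do not show that KO and WT were equal.

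Of 8 other factors that bind the proteasome, 6 were lower in DTC (median -0.91) and 6 in DTEC (median -0.58). For this list and the next, the share of all tested genes called lower was 33.3% in DTC and 26.3% in DTEC. ADRM1, the ubiquitin receptor of the regulatory particle, read 153, 203 and 189 CPM in WT, 62.4, 91.3 and 99.7 in DTC and 65.3, 72.5 and 98.3 in DTEC, with no overlap with WT, and fell by 1.10 ± 0.18 and 1.21 ± 0.18. UCHL5, the deubiquitinase that ADRM1 recruits, fell by 1.28 ± 0.13 and 0.76 ± 0.12. Of 9 assembly chaperones 5 were lower in DTC (median -0.43; with total-count scaling 2 were lower and 3 higher, median -0.07) and 7 in DTEC (median -0.62). PSMG1, which helps build the alpha ring, read 54.3, 46.0 and 48.2 CPM in WT, 21.1, 26.0 and 23.3 in DTC and 17.2, 18.5 and 16.2 in DTEC, with log2 fold changes of -1.08 ± 0.11 and -1.52 ± 0.11. POMP, which joins beta rings, was at 0.17 ± 0.18 in DTC, not called, and -0.86 ± 0.18 in DTEC. PSMD5, a base chaperone, fell by 0.79 ± 0.12 in DTC. Neither list had a call in KO, against 4.31% of all genes.

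NFE2L1 itself read 354, 377 and 368 CPM in WT, 441, 336 and 368 in DTC, 338, 319 and 299 in DTEC and 368, 369.9 and 384 in KO. Its differences from WT were 0.06 ± 0.10, -0.20 ± 0.10 and 0.03 ± 0.10, none called; under total-count scaling DTC was 0.41 higher with adjusted p = 0.00293. NFE2L1 acts after protein cleavage, which RNA levels do not measure. Of the 8 genes of its axis 4 were lower and 1 higher in DTC, and 2 and 2 with total-count scaling. Among all tested genes 67.3% were called in DTC, 33.3% lower and 34.0% higher. NFE2L3, a related factor, read 354, 316 and 318 CPM in WT, 140.0, 90.5 and 105 in DTC and 356, 313 and 285 in DTEC, at -1.56 ± 0.14 in DTC (adjusted p = 2.53e-07) and at -0.05 ± 0.14 in DTEC, not called. DDI2, the protease that activates NFE2L1, fell by 0.96 ± 0.20 in DTC and was at 0.27 ± 0.19 in DTEC, not called. Between DTEC and DTC both differed, by 1.51 ± 0.14 and 1.24 ± 0.20 (adjusted p = 8.54e-07 and 1.41e-04).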

How the data were processed

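The authors deposited expected counts per Ensembl gene, decimal estimates of the reads of each gene. RSEM 1.3.1, Bowtie2 2.5.2, DESeq2 1.40.2 and GRCh38 are listed, with no role, per the submitters' processing notes; the annotation release is not given in the sources used here. Expected counts were rounded; 20 members were whole numbers in all 12 libraries (tolerance 1e-09) and 3 in none, and 11 members have annotated pseudogenes. edgeR 4.0.16 (R 4.3.3) fitted 1 mean per group over all 12 libraries with TMM factors (0.892 to 1.16), filterByExpr and a robust quasi-likelihood test; intervals use 8 residual degrees of freedom. The fit was also run on counts simulated from its own estimates of the spread. That simulation held no length trend, so it cannot test how the fit handles the one in DTC. Lengths are medians over basic transcripts with a CCDS entry in GENCODE 29. Promoters are from RefSeq. Alternatives changed the scaling, filter, tool (DESeq2 1.42.0), libraries, replicate block and a length trend. Of the 21 alternatives, 12 left out 1 library each, some of them from groups outside the comparison, so the 21 are not independent checks. Named genes were, per comparison, the 5 largest called rises and 5 largest called falls, the catalytic subunits, the activators, PSMD14, NFE2L1, TDP1 and up to 2 called genes of each related list; others were named after their values were seen. Members, lists and tests were chosen with earlier results of these data known.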

Additional observations from a re-analysis of the deposited data

Results flagged for a closer look

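The DTEC minus DTC contrast was tested itself, both groups having the same WT libraries as reference. It was called for 20 of the 35 members, against 55.4% of all genes. The 9 of these that the rule for named genes picks are given here. On the log2 scale the difference was -0.97 for PSMA4, -0.94 for PSMA5, -0.84 for PSMA6 and -0.80 for PSMA3, all genes of the alpha ring. It was -0.88 for the activator PSME2, -0.58 for the deubiquitinase PSMD14 and -0.37 for the catalytic PSMB7, the last with overlapping libraries. It was 0.49 for PSMD7 and 0.27 for PSME3, the latter called in 3 of 21 alternatives. None of the 35 was called in opposite directions at the 2 times. With a length trend removed from each library, the 4 alpha ring genes named here were still lower at 28 days.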

How the results depend on the processing

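The number of called members stayed within 1.5 times of its value in DTC, DTEC and DTEC against DTC under every alternative run. In KO it was 9 on the compared libraries alone, 1 with the length trend removed and 0 to 2 with 1 library left out, 2 being without DTC replicate 1; over all genes the calls were 2656, 1092 and, without DTC replicate 1, 1520, against 738. The members' median in DTC was -0.092 with total counts and -0.16 with upper quartile; in DTEC it was -0.63 and -0.68, and -0.83 to -0.73 with 1 library left out. Between DTEC and DTC it was -0.46 and -0.45, -0.19 with the length trend removed, and -0.38 to -0.24 with 1 library left out. In KO it was -0.066 with total counts, -0.11 with upper quartile, with no filter, with a mean of at least 10 counts or on the compared libraries alone, and -0.17 to -0.092 with 1 library left out. The summed level was 7231 CPM in DTC, 7718 in KO and 8361 in WT with total counts. Over members with whole counts it was 3397 in DTC, 2613 in DTEC, 4020 in KO and 4445 in WT, since fewer genes enter. It was 7996 to 8304 in KO with 1 library left out. Apart from that sum over fewer genes, the cause was not tested.

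Some differences that were not called, and the DTC call of PSMB7, changed sign. PSMB7 in DTC was 0.057 with total counts. NFE2L1 in DTC was -0.022 to 0.20 with 1 library left out. Between DTEC and DTC, PSMB5 was 0.045 with the length trend removed. PSMB6 was -0.13 with total counts, -0.11 with upper quartile and -0.10 to 0.13 with 1 library left out. PSME1 was 0.21 with the length trend removed and -0.29 to 0.13 with 1 library left out. PSME4 was -0.16 with total counts, -0.000373 with RLE factors, -0.14 with upper quartile, -0.018 with a mean of at least 10 counts, -0.20 with the length trend removed, and -0.12 to 0.27 with 1 library left out. TDP1 in DTEC was -0.00997 to 0.085 with 1 library left out. The PSMB10 share in DTEC minus DTC was -1.31 to 0.268 percentage points with 1 library left out.

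Libraries with the same replicate number had correlations of -0.01 to 0.18 between their deviations, not over 0.1 for every pair of any comparison, so the numbers were not taken as pairs. With a replicate block the called members were 24 in DTC, 34 in DTEC, 20 between DTEC and DTC and 0 in KO. Calls over all genes were 11775, 9255, 9732 and 887 in the same order.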

Other observations

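Shuttle receptors, which bring ubiquitinated proteins to the proteasome, moved both ways. Of 8 genes 4 were lower and 2 higher in DTC (4 and 4 with total-count scaling), and the same numbers held in DTEC. Of all tested genes 33.3% were lower and 34.0% higher in DTC, and 26.3% and 26.0% in DTEC. UBQLN4 read 187, 178 and 179.9 CPM in WT, 83.3, 67.7 and 66.2 in DTC and 121, 118 and 123 in DTEC. It fell by 1.33 ± 0.10 and 0.59 ± 0.10, and the difference of DTEC from DTC was 0.73 ± 0.10 (adjusted p = 2.68e-05 in edgeR's quasi-likelihood test). RAD23B fell by 1.18 ± 0.10 in DTC, and UBQLN2 was higher in DTEC by 0.61 ± 0.13.

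VCP, the segregase that extracts ubiquitinated proteins, read 638, 615 and 600.5 CPM in WT, 418, 293 and 345 in DTC and 364, 353 and 398 in DTEC. Of VCP and its cofactors 6 of 7 were lower in DTC (3 lower and 1 higher with total-count scaling) and 5 in DTEC. Of all tested genes 33.3% were lower in DTC and 26.3% in DTEC. The cofactors NSFL1C and FAF1 fell by 1.33 ± 0.09 and 1.24 ± 0.09 in DTC. Of 7 ubiquitin genes and activating enzymes 4 were lower in DTC and UBD higher, against 0 lower and 3 higher with total-count scaling. In DTEC only UBD of these 7 was called, against 52.3% of all genes.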
